A study of Mus musculus with 4 samples.

Results

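Nuclear copies of mitochondrial genes were examined in RNA from isolated mitochondria and from a rest fraction of the mouse heart. The 7 copies, Gm13339, Gm13340, Gm13341, Gm11407, Gm11408, Gm11410 and Gm11512, were chosen from the 15746 genes of the table for 2 properties. Each lies on chromosome 2, 4 or 11 and is 90 to 98% identical to a protein-coding gene of the mitochondrial chromosome (chrM), and each was already known to be high in the mitochondrial libraries. Alignment of the transcripts gave identities between 90.7% and 97.6%, so that the label held for all 7. They match 6 chrM genes, mt-Nd2, mt-Nd5, mt-Nd6, mt-Cytb, mt-Co1 and mt-Co2, because mt-Co1 has 2 copies among them. The values of the copies between the fractions are given as a description, without a test, since these values were part of the choice.

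The study compared the RNA content of both fractions to find RNAs that accompany mitochondria. All 4 libraries came from hearts of adult wild-type (WT) mice. The mitochondrial group held 2 libraries of isolated mitochondria, which by the study's methods were incubated with digitonin and RNase A before the RNA was extracted. The rest group held 2 libraries of the rest fraction, by the methods the pellet of cell debris from the first centrifugation of the homogenate. Mitochondria were collected from the supernatant of that step, and the pellet was not free of mitochondrial RNA. No nuclease treatment is described for the rest fraction. By the methods the fragmentation time in library preparation was also adjusted for the mitochondrial samples, by the size of their RNA. The fraction, the nuclease treatment and the fragmentation time can therefore not be told apart. Strain, exact age and the number of hearts behind each library are not given in the sources used here. The replicates are separate samples by their labels, and nothing says that they came from separate animals, so that the p-values measure the spread between these libraries alone.

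Mitochondria carry a small circular chromosome that encodes subunits of respiratory complexes I, III, IV and V together with the rRNAs and tRNAs needed to translate them. During evolution, stretches of this chromosome were inserted into nuclear chromosomes as nuclear mitochondrial DNA segments, which are annotated as pseudogenes and which the nuclear genetic code would read differently. The heart is rich in mitochondria and its RNA holds a large amount of mitochondrial transcripts, so that short reads from a recent insertion and from the chromosome it came from can look alike.

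To show how alike they are, the stretch of 75 bases, the read length of the libraries, with the fewest differences is printed for each copy beside its chrM gene. Sequences and positions are those of GENCODE M21 transcripts on GRCm38, written from 5′ to 3′ in the direction of the gene, and capitals mark the bases at which a pair differs. For 4 of the 7 copies this stretch was identical to the chrM gene. The first set shows a stretch of mt-Co1, which encodes the catalytic core subunit of complex IV, at the place where it is identical in Gm13340 and where the second copy, Gm11512, differs at the 5 capitals. In Gm11512 the stretch was taken at the place of the Gm13340 stretch and not at its own closest match.
mt-Co1 (chrM:6232-6306, plus strand): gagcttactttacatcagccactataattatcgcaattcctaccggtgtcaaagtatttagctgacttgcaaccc
Gm13340 (chr2:22588669-22588743, minus strand): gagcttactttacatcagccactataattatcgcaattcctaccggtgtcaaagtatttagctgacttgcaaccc
Gm11512 (chr11:90539047-90539121, minus strand): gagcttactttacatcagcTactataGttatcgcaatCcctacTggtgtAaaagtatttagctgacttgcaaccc
The stretches of mt-Nd2 (complex I), mt-Co2 (complex IV) and mt-Nd5 (complex I) were found without a difference in their copies.
mt-Nd2 (chrM:4775-4849, plus strand): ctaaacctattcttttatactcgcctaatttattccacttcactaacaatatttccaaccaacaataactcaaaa
Gm13339 (chr2:22590126-22590200, minus strand): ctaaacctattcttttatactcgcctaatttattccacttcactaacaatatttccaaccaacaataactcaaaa
mt-Co2 (chrM:7070-7144, plus strand): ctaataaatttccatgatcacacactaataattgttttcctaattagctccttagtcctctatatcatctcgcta
Gm13341 (chr2:22587831-22587905, minus strand): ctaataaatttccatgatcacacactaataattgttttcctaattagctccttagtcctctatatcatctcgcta
mt-Nd5 (chrM:13056-13130, plus strand): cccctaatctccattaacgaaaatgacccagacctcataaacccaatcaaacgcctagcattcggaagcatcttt
Gm11407 (chr4:80002898-80002972, plus strand): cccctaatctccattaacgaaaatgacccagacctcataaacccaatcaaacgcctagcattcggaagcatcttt
No identical stretch of this length exists for mt-Nd6 (complex I) or mt-Cytb (the cytochrome b of complex III), and the closest stretches carry 1 capital each.
mt-Nd6 (chrM:13576-13650, minus strand): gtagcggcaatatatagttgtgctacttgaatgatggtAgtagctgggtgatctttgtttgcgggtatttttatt
Gm11408 (chr4:80003420-80003494, minus strand): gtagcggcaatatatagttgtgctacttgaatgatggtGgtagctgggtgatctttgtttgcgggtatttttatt
mt-Cytb (chrM:14355-14429, plus strand): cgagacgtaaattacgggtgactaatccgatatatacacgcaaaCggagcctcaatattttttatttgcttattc
Gm11410 (chr4:80004199-80004273, plus strand): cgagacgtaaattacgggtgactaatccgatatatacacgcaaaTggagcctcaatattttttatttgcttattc

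The copies fell into 2 clusters and 1 lone gene. Gm13341, Gm13340 and Gm13339 lie on the minus strand of chromosome 2, from 22587291 to 22590533, and are annotated as unprocessed pseudogenes. Their order and the distances between them, 140 and 376 bases, equal those of mt-Co2, mt-Co1 and mt-Nd2 on chrM. Gm11407, Gm11408 and Gm11410 lie on chromosome 4, from 80002331 to 80005131, and are annotated as processed pseudogenes. They also follow chrM, with Gm11408 on the strand opposite to its neighbours as mt-Nd6 is on chrM, and with 7 and 74 bases between neighbours. The alignable parts of mt-Nd5, mt-Nd6 and mt-Cytb are 7 and 75 bases apart. Gm11512 is alone on chromosome 11, from 90538484 to 90539146 on the minus strand, inside Stxbp4 on the same strand and outside its exons. The cluster on chromosome 2 lies inside Myo3a on the opposite strand, also outside its exons, and Myo3a is not listed in the table.

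The copies differ in how much of the chrM gene they cover. Gm13340 covers all 1545 bases of mt-Co1 at 97.6% identity with 37 differing bases. Gm13341 covers mt-Co2 at 95.9% identity over 684 aligned positions, with 16 differing bases and a gap of 12 bases at positions 433 to 444 of the chrM gene. Gm13339 holds the second part of mt-Nd2, bases 529 to 1038, at 96.7% identity. The cluster on chromosome 4 has diverged further. Gm11408 covers all of mt-Nd6 at 93.6%, Gm11410 covers 99.8% of mt-Cytb at 92.9%, and Gm11407 covers bases 748 to 1803 of mt-Nd5 at 92.3% with an insertion of 2 bases. Gm11512 covers bases 889 to 1542 of mt-Co1 at 90.7% and is the most diverged of the 7.

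The differences were unevenly spread over codon positions, which the choice of the copies had not used. Over 6112 aligned positions, 324 bases differed, of which 246 (75.9%) lay at the third codon position, 56 at the first and 22 at the second. Transitions made up 274 of them (84.6%) and transversions 50. Of the codons that differed, 252 still specified the same residue in the vertebrate mitochondrial code and 58 specified another. Among 2027 codons compared, 2 read as a stop in the mitochondrial code, 1 in Gm11408 and 1 in Gm11410, while in the standard code Gm13340 alone holds 18 stops and mt-Co1 itself holds 17. The codons were taken from the alignment in the frame of the chrM gene, so that the insertion in Gm11407 was not read as a frameshift.

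The spacing of the differences set how long a stretch is shared. The longest stretch without a difference was 173 bases in Gm13341, 148 in Gm13340 and 129 in Gm13339. It was 95 bases in Gm11407, 54 in Gm11512, 47 in Gm11410 and 39 in Gm11408. The last 3 therefore share no stretch of the full read length with their chrM gene. They do share stretches of 30 bases, the shortest read that was kept after trimming.

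**Figure D1:**
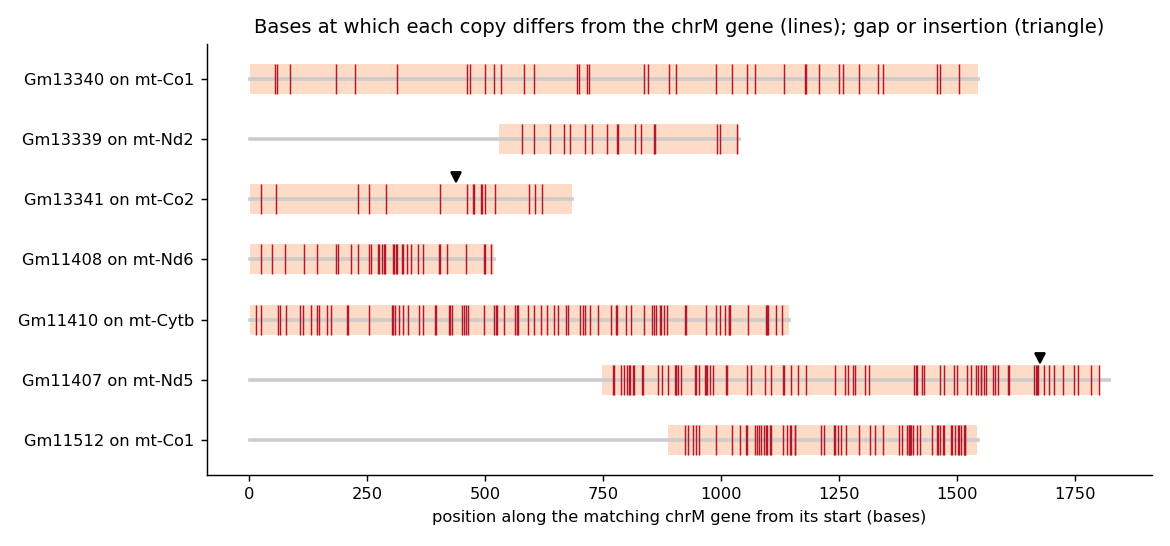
Map of the copies along their matching chrM genes. The grey line is the whole chrM gene from its start, in bases, the shaded block is the part that the copy covers, each line is a differing base and a triangle marks a gap or insertion; differences are sparse in Gm13340, Gm13339 and Gm13341 and denser in the other 4 copies.

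The depth of the libraries frames all levels. The deposited values, called normalized counts below, are read counts that the authors had scaled by the size factors of DESeq2 and rounded. They summed to 183395941 and 81928351 in the mitochondrial libraries and to 6956699 and 8584617 in the rest libraries. Genes of chrM held 97.6% and 93.5% of the totals of mitochondria and 63.2% and 67.5% of those of the rest fraction. Their 2 rRNAs alone held 94.5% and 82.5% in mitochondria and 52.6% and 58.4% in the rest. In mitochondrial replicate 1 a single read was worth 3.87 normalized counts and in replicate 2 it was worth 2.55, so that the floor of 3 reads lay at 11.6 and 7.65 normalized counts. In the rest libraries a read was worth less than 1, and numbers of reads could not be recovered there. All 7 cardiomyocyte markers examined were listed, with sums between 205978 and 278797 in the 4 libraries.

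All 7 copies were higher in both mitochondrial libraries than in both rest libraries, with folds of the means between 7.64 and 24.5 (n = 2 per fraction). In the fit across the 12150 tested genes 7 of 7 were called higher in mitochondria by limma, beside 2.16% of all tested genes (1.39% were called lower), and 7 of 7 did not overlap between the fractions, beside 27.7%. Both counts are fixed by the choice of the copies and nothing is read from them. No copy was lost to the filter on low values, since the lowest value of any copy in any library was 27. The median log2 fold change of the 7 copies was 3.25, beside -0.14 for all tested genes. Leaving out mitochondrial replicate 1 or 2 gave medians of 3.51 and 2.88.

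The direction depends on the scaling. As a share of the library total, the copies together held 0.131% and 0.514% in mitochondria and 0.512% and 0.417% in the rest, so that the fractions overlapped. With library totals as the scale the median log2 fold change of the copies was -0.73, that of their chrM genes -0.77 and that of all tested genes -3.93, and 2 of all genes were called higher and 12022 lower, in place of 262 and 169. Under both scales the median of the copies lay above that of all tested genes. Their level in mitochondria was part of the choice, and nothing is read from this. The ratios of a copy to its chrM gene within a library, given below, do not depend on the scale.

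Among the copies of complex I genes, Gm13339 matches mt-Nd2, a membrane subunit of the complex. Gm13339 had 18327 and 34626 normalized counts in mitochondria and 2558 and 4369 in the rest (7.64-fold, log2 fold change 2.91 ± 0.44, SE). Its chrM gene mt-Nd2 had 252426 and 430803 in mitochondria and 43049 and 48648 in the rest. Both replicates of mitochondria lay above both of the rest for each of the pair, and replicate 2 was the higher one in both fractions. Gm13339 therefore held 7.26% and 8.04% of the level of mt-Nd2 in mitochondria and 5.94% and 8.98% in the rest, with overlapping fractions.

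Gm11407 matches mt-Nd5, a further membrane subunit of complex I. It had 10058 and 11663 normalized counts in mitochondria and 421 and 466 in the rest, the largest fold among the copies (24.5-fold, log2 fold change 4.61 ± 0.18, SE). mt-Nd5 itself had 1022034 and 1379034 in mitochondria and 111739 and 91290 in the rest, an 11.8-fold difference of the means. The ratio of Gm11407 to mt-Nd5 was 0.984% and 0.846% in mitochondria against 0.377% and 0.510% in the rest. The ratios of Gm11407 did not overlap between the fractions, and their geometric mean in mitochondria was 2.08 times that in the rest. Such a lack of overlap is not particular to it. It was found in 1 of the 7 copies and in 3 of 9 other listed nuclear genes that align to chrM. Gm10222 and Gm50174 had the higher ratios in mitochondria, and Gm28439 had the higher ratios in the rest. Their geometric mean ratios differed 1.01-, 1.25- and 0.851-fold in that order (mitochondria over rest). With 2 libraries per fraction an exact two-sided permutation test cannot give a p below 0.333, and no test was made.

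A second nuclear copy of mt-Nd5 in the table, Gm4076 on chromosome 13, allows a comparison. Gm4076 is 95.2% identical to mt-Nd5 and 95.6% identical to Gm11407 over 912 bases, and was found through its alignment to chrM. Its ratio to mt-Nd5 was 0.218% and 0.267% in mitochondria and 0.211% and 0.337% in the rest. These ratios overlapped between the fractions. The copy that was less diverged over its whole alignment thus had the lower ratio in each of the 4 libraries. Of the windows of 75 bases of mt-Nd5, 0.457% were found without a difference in Gm4076 and 1.2% in Gm11407. At 30 bases the order was the reverse, with 13.5% and 7.91%. The part of these shares in the ratios was not tested. Whether the 2 copies differ in their ratio between fractions was not tested.

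Gm11408 matches mt-Nd6, the only protein-coding gene on the opposite strand of chrM. It had 4648 and 5296 normalized counts in mitochondria and 567 and 234 in the rest (12.4-fold, log2 fold change 3.76 ± 0.45, SE). mt-Nd6 had 228320 and 245648 in mitochondria and 22024 and 22396 in the rest, and its replicates lay closer together than those of Gm11408 in the rest. The ratio was 2.04% and 2.16% in mitochondria and 2.57% and 1.04% in the rest. Without rest replicate 1 the log2 fold change of Gm11408 was 4.40, and without rest replicate 2 it was 3.13. The rest replicates of the ratio enclosed the mitochondrial ones, and a difference of the ratio between fractions was smaller than the spread of the rest replicates. Strand use in the counting is not stated in the sources used here. Reads from mt-Nd6 and from the opposite strand at its place can therefore not be told apart.

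Gm11410 matches mt-Cytb, the only complex III subunit encoded by chrM. It had the lowest level of the 7 copies, with 213 and 268 normalized counts in mitochondria and 27 and 29 in the rest (8.59-fold, log2 fold change 3.05 ± 0.23, SE). mt-Cytb had 731076 and 1296162 normalized counts in mitochondria and 105192 and 114597 in the rest. The ratio of the pair ranged 1.41-fold, at 0.0291% and 0.0207% in mitochondria and 0.0257% and 0.0253% in the rest. In mitochondria the level of Gm11410 rested on 55 and 105 reads, with 95% Wilson intervals of the ratio from 0.0224% to 0.0379% and from 0.0171% to 0.0250%. These intervals overlap and cover counting error only, since the reads carry no molecular identifiers in the sources used here.

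Among the copies of complex IV genes, Gm13340 was the most abundant. Gm13340 had 163808 and 285899 normalized counts in mitochondria and 26124 and 24008 in the rest (8.97-fold, log2 fold change 3.11 ± 0.45, SE). By its mean over the 4 libraries it ranked 7 among the 15709 listed nuclear genes. Its chrM gene mt-Co1 had 1389743 and 2221779 in mitochondria and 195854 and 198485 in the rest. The ratio of Gm13340 to mt-Co1 was 11.8% and 12.9% in mitochondria and 13.3% and 12.1% in the rest, although mt-Co1 itself differed 11.3-fold between its lowest and highest library.

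Gm13341, the copy of mt-Co2, had the highest ratio. It had 43149 and 83178 normalized counts in mitochondria and 5900 and 6695 in the rest (10.0-fold, log2 fold change 3.25 ± 0.40, SE). mt-Co2, the copper-binding subunit of complex IV that accepts electrons from cytochrome c, had 220411 and 385874 in mitochondria and 28834 and 31087 in the rest. The ratio was 19.6% and 21.6% in mitochondria and 20.5% and 21.5% in the rest. The highest ratio was 1.10 times the lowest, while mt-Co2 ranged 13.4-fold and Gm13341 14.1-fold over the same 4 libraries.

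Gm11512, the diverged copy of mt-Co1 on chromosome 11, behaved differently between replicates. It had 751 and 431 normalized counts in mitochondria and 56 and 36 in the rest (12.8-fold, log2 fold change 3.63 ± 0.37, SE). The ratio of mitochondrial replicate 2 to replicate 1 was 0.574 for Gm11512, whereas it lay between 1.14 and 1.93 for the other 6 copies and between 1.08 and 1.77 for the 6 chrM genes. Its ratio to mt-Co1 was 0.0540% and 0.0194% in mitochondria and 0.0286% and 0.0181% in the rest. The mitochondrial values rested on 194 and 169 reads, and their Wilson intervals, from 0.0470% to 0.0622% and from 0.0167% to 0.0226%, did not overlap. The replicates thus differed by more than these intervals cover. The intervals take each read as independent, although the reads carry no molecular identifiers in the sources used here. The ratios of the fractions overlapped.

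**Figure D2:**
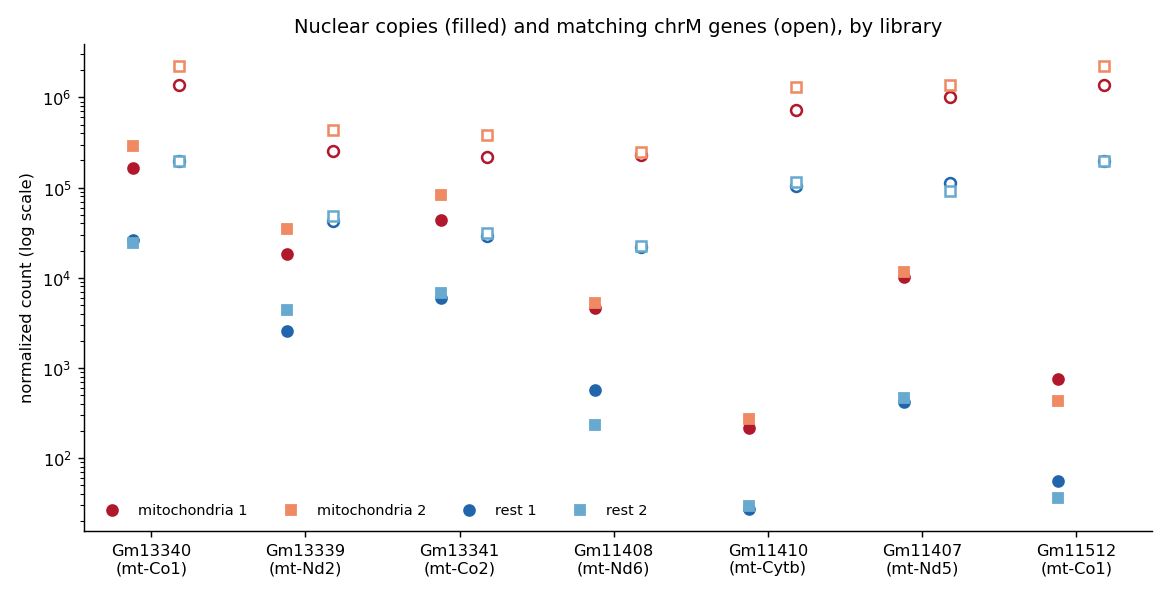
Normalized counts, on a log axis, of each copy (filled) and its matching chrM gene (open) in the 4 libraries, by colour and shape. Mitochondrial libraries lie above rest libraries for each gene, and the distance between copy and chrM gene is small for Gm13340, Gm13339 and Gm13341 and largest for Gm11410 and Gm11512.

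The 6 matching chrM genes were tested in the fit across all genes. 2 of the 6 were called higher in mitochondria, mt-Nd6 with a log2 fold change of 3.41 ± 0.37 (SE, limma adjusted p = 0.0427) and mt-Co2 with 3.28 ± 0.48 (limma adjusted p = 0.0469). The other 4 had log2 fold changes of the same size that did not pass. These were 3.56 for mt-Nd5 (limma adjusted p = 0.0608), 3.15 for mt-Cytb (0.0717), 3.16 for mt-Co1 (0.103) and 2.85 for mt-Nd2 (0.0563). Under other scalings and filters the number called ranged from 0 to 6. Among all 13 protein-coding genes of chrM 6 were called higher and 0 lower, with 13 higher at an unadjusted p under 0.05 in limma. Of all 12150 tested genes 262 (2.16%) were called higher, with 1718 higher at an unadjusted p under 0.05 in limma. For the 2 rRNAs 0 were called, also at an unadjusted p, and for the 22 tRNAs 2 were called higher. With each of the 4 libraries left out in turn, 0 of the 6 matching genes were called.

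**Figure D3:**
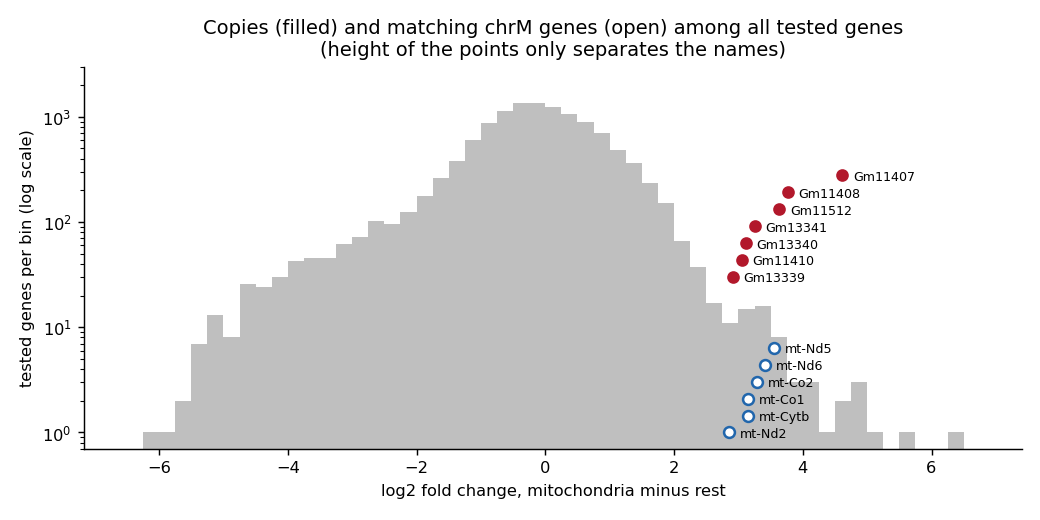
Histogram of the log2 fold change of all 12150 tested genes, on a log axis of genes per bin, with the 7 copies (filled) and the 6 matching chrM genes (open). The height of the points only separates the names; both sets lie between 2.85 and 4.61, to the right of most tested genes, whose median is -0.14.

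The ratio of copy to chrM gene was set beside the sequence that they share. For each chrM gene the share of all its windows of 75 bases that is found without a difference in the copy was computed. The share was 15.0% for Gm13340, whose mean ratio was 12.5%, and 22.6% for Gm13341, whose mean ratio was 20.8%. It was 5.71% for Gm13339, whose mean ratio was 7.56%. For Gm11407 the share was 1.20% and the mean ratio 0.679%. In these 4 copies the mean ratio thus lay between 0.566 and 1.32 times the share of identical windows, over levels that ranged from 421 to 285899 normalized counts.

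For the remaining 3 copies the share of identical windows of 75 bases was 0. Gm11408 nevertheless had a mean ratio of 1.95%, larger than that of Gm11407. At 30 bases, 8.37% of the windows of mt-Nd6 were identical in Gm11408, and at 40 bases there were 0. Gm11410 and Gm11512 had mean ratios of 0.0252% and 0.0300%, with 7.35% and 2.84% of windows identical at 30 bases. Gm11410 and Gm11408 thus shared similar portions at 30 bases while their mean ratios differed widely. The order of the ratios of gene totals ran from Gm13341, Gm13340, Gm13339, Gm11408 and Gm11407 to Gm11512 and Gm11410. Over the 4 libraries the ranges of neighbours did not overlap, apart from those of Gm11512 and Gm11410. These totals were not divided by length, and Gm13339, Gm11407 and Gm11512 cover only part of their chrM gene. Per base of exon the mean ratio was 15.4% for Gm13339 and 12.5% for Gm13340, with overlapping ranges. The ranges of Gm11407 (0.650% to 1.70%) and Gm11408 (1.04% to 2.57%) also overlapped per base, while those of Gm11512 and Gm11410 did not.

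**Figure D4:**
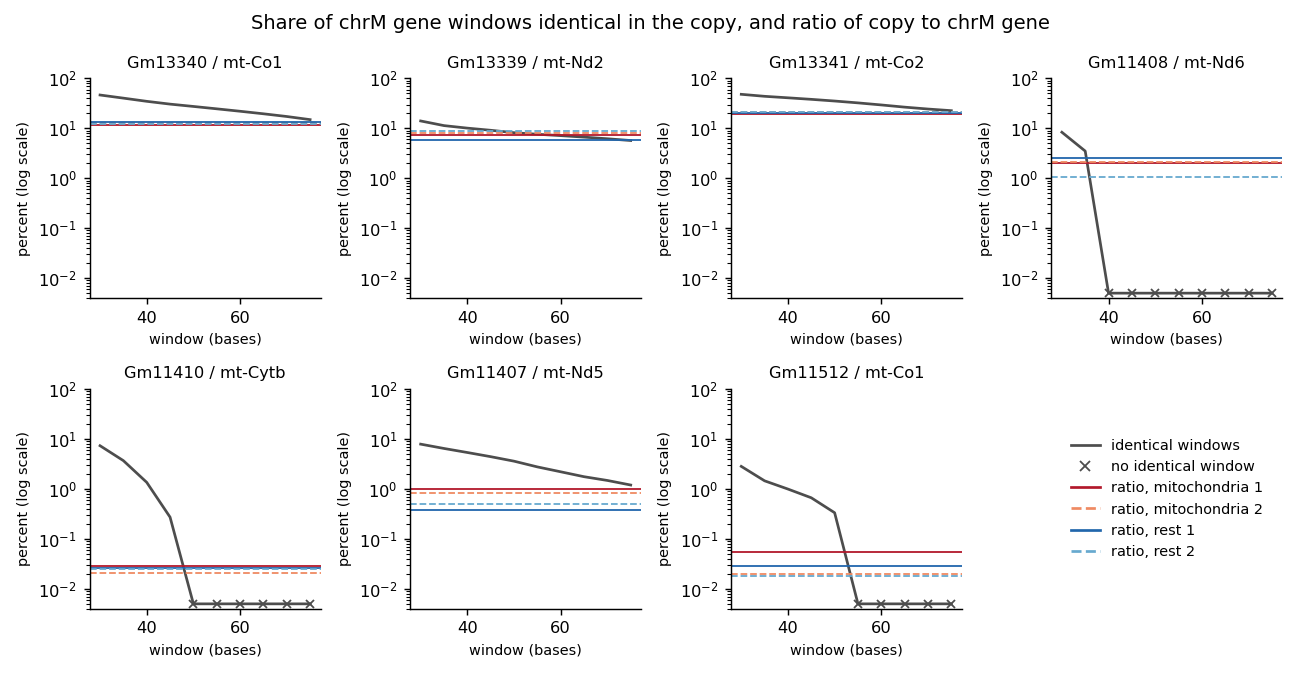
For each copy, the share in percent of the windows of its chrM gene that are identical in the copy (dark curve, by window length in bases) and the ratio of copy to chrM gene in each library (horizontal lines), on a log axis. Crosses at the lower edge stand for a share of 0; the ratio lines lie close to the right end of the curve for Gm13340, Gm13339 and Gm13341, lie below the whole curve for Gm11407, and cross it at shorter windows for Gm11408, Gm11410 and Gm11512.

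The methods state that reads aligning to several regions were excluded before counting. The table nevertheless holds counts for nuclear genes that cannot be told from chrM by sequence. A further 9 listed nuclear genes aligned to chrM at 90% identity or more over at least 100 bases, and 7 of them, on chromosome 1, were 99.7 to 100% identical. Among these, the copy of mt-Co3, Gm28437, held 100.7% of the level of mt-Co3 in both mitochondrial libraries, and 101.2% and 100.5% in the rest. The copy of mt-Atp6, Gm10925, held between 113% and 120% of its chrM gene in the 4 libraries, and the full-length copy of mt-Co2, Gm28661, between 104% and 107%. Gm29216 covers 31.3% of mt-Co1 and held between 27.9% and 35.8% of its level, and Gm28439 covers 63.6% of mt-Nd4 and held between 29.0% and 36.6%. Counts of these genes are uncertain between the copies. From gene totals, reads that came from a nuclear copy and reads that came from chrM cannot be told apart.

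Listed genes around the copies had values of at most 91 normalized counts in each library. Stxbp4, which contains Gm11512, had 43 and 23 normalized counts in mitochondria and 42 and 35 in the rest. The nearest listed genes beside the cluster on chromosome 2 were Apbb1ip, with values between 15 and 46 in the 4 libraries, and the pseudogene Gm13378, between 4 and 10. Beside the cluster on chromosome 4, Gm11263 had 39 and 33 in mitochondria against 10 and 13 in the rest, and Lurap1l between 0 and 10. In the rest libraries Stxbp4 was thus near the level of Gm11512 (56 and 36). On chromosome 11 the nearest listed genes outside Stxbp4 were Hlf, between 79 and 91, and Cox11, between 8 and 15. Outside Stxbp4, the nearest listed gene was 99026 bases away on chromosome 11, 183560 on chromosome 2 and 673874 on chromosome 4. Genes that lie nearer in the annotation, Gm11511 on chromosome 11, Gm13342 and Gad2 on chromosome 2, and Gm11409 and Gm11406 on chromosome 4, are not listed in the table.

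Other pseudogenes give the range of levels of this class. The highest mean among the 668 tested pseudogenes that do not align to chrM was 1344 normalized counts, in Gm15459, and their median was 19.8. The copies Gm13340, Gm13341, Gm13339, Gm11407 and Gm11408 had means above that of Gm15459, with ranks of 7, 15, 24, 47 and 74 among the listed nuclear genes. Gm11512 and Gm11410 ranked 918 and 2415, and 30 of the 668 had a mean above that of Gm11410. Among the other pseudogenes 35 were called higher in mitochondria and 2 lower, and their log2 fold changes ran from -4.75 to 3.01 with a median of 1.02. The levels of the copies in mitochondria and their fold changes were part of their choice. Nothing is read from these ranks and comparisons.

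The genes whose profile over the 4 libraries was nearest to the mean profile of the copies were themselves from chrM or copies of it. Likeness was measured as the Euclidean distance of centred log2 values over the 5556 genes with a mean above 50 normalized counts, where the median distance was 3.59. The nearest were mt-Nd5 (0.153), mt-Nd6 (0.222), mt-Nd4 (0.310), mt-Atp6 (0.334) and the mt-Co2 copy Gm28661 (0.360). All 20 nearest were chrM genes or copies. The mean profile holds the fold between the fractions, which was part of the choice of the copies. Many of the neighbours also share sequence with the copies, and nothing is read from this nearness. The distance of single copies to the same mean profile ran from 0.454 for Gm11410 to 1.15 for Gm11407, the copy with the largest fold.

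Markers of other compartments and cells moved between the fractions as well. The summed level of 3 nuclear RNAs, Malat1, Neat1 and Xist, of which 1 was at 0 in some library, was 13629 and 8630 normalized counts in mitochondria and 42260 and 44866 in the rest. All 4 endothelial markers were listed, with sums of 1402 and 1214 in mitochondria and 2395 and 2173 in the rest. The 4 fibroblast markers summed to 6755 and 2838 in mitochondria and 1798 and 2580 in the rest, and the 3 macrophage markers to 286 and 164 against 99 and 116. Of the smooth muscle markers 2 of 3 were listed, with 136 and 423 in mitochondria and 588 and 1374 in the rest. The 3 erythroid markers, of which 1 was at 0 in some library, summed to 27 and 188 in mitochondria and 475 and 249 in the rest, and 0 of 2 adipocyte markers were listed. Their part in the levels of the copies was not tested. In fractions of bulk tissue, fewer cells of a type, less RNA per cell and less of that RNA carried into or kept in a fraction cannot be told apart.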

How the data were processed

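RNA from isolated heart mitochondria and from the rest fraction was sequenced in 2 libraries each, as single reads of 75 bases from a total RNA kit with low input. The authors trimmed reads with Trimmomatic and kept those of at least 30 bases, aligned them to GRCm38 (mm10) with STAR at up to 10% mismatches, counted reads over exons with featureCounts and, by their methods, left out reads of several genes or regions. Strand use in counting is not given in the sources used here. The deposited values, treated here as a score and not as counts, are gene counts that the authors divided by DESeq2 size factors and rounded.

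In place of a count test, limma 3.58.1 (R 4.3.3) with a mean-variance trend was run on log2(normalized count + 1), for the 12150 genes that reached 10 normalized counts in 2 or more libraries, with Benjamini-Hochberg adjustment and a threshold of 0.05. A log2 fold change on this scale understates changes of low genes. On simulated data for 12150 genes, 87% of 200 genes changed 4-fold were recovered, with 2 false calls. The simulation used the same dispersion for all genes and took each normalized count as a read. It therefore left out the larger worth of a read in the mitochondrial libraries, and the share recovered cannot be carried over to these data.

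Reads in the mitochondrial libraries came from the spacing of low values, of which 100% lay on whole reads; the rest libraries were below 1 normalized count per read. Copies were aligned to GENCODE M21 transcripts with blastn 2.17.0. Genes named are the copies, their chrM genes, the 5 most abundant other copies, the nearest neighbours and the 5 nearest profiles, with Gm4076, Gm10222, Gm50174, Gm15459 and Myo3a named after their values were seen. The copies and lists were chosen with earlier results of these data known. Alternatives covered scaling, filter, pseudocount, a replicate block and each library left out.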

Additional observations from a re-analysis of the deposited data

How the results depend on the processing

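The ratios of copy to chrM gene and the identities do not depend on the scaling. The medians of the ratios moved by less than the replicate spread. Per base of exon the median stayed at 1.95%, the value of Gm11408, which is as long as its chrM gene. Mean ratios of copies that cover only part of their chrM gene rose per base. They went from 7.56% to 15.4% for Gm13339, from 0.679% to 1.17% for Gm11407 and from 0.0300% to 0.0700% for Gm11512. Those of the other copies changed little. The identities have no replicates, and their median of 93.6% became 94.7% in windows of 75 bases and 96.7% in windows of 30 bases. With library totals or with chrM totals as the scale, directions reversed. The log2 fold changes were then -0.88 and -1.42 for Gm13340, -1.07 and -1.62 for Gm13339, -0.73 and -1.28 for Gm13341, -0.22 and -0.77 for Gm11408, -0.88 and -1.42 for Gm11410, and -0.32 and -0.87 for Gm11512, while Gm11407 stayed positive at 0.62 and 0.08. The chrM genes gave -1.14 and -1.69 for mt-Nd2, -0.83 and -1.38 for mt-Co1, -0.70 and -1.25 for mt-Co2, -0.43 and -0.98 for mt-Nd5, -0.57 and -1.12 for mt-Nd6, and -0.84 and -1.39 for mt-Cytb. The medians were -0.73 and -1.28 for the copies and -0.77 and -1.32 for the chrM genes, and 0 of 7 copies were without overlap. These scales moved the median of all tested genes to -3.93 and -4.43, and the total without chrM moved it to -0.98. On that last scale the medians were 2.39 and 2.36.

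Of all genes, 262 were called higher and 169 lower. These became 443 and 316 with TMM scaling, 2 and 12022 with library totals, 129 and 3819 with totals without chrM, 2 and 12076 with chrM totals, 790 and 670 with a mean above 50, 0 and 0 with a pseudocount of 0.1 (1694 and 1754 at an unadjusted p under 0.05 in limma) and 536 and 580 with a pseudocount of 10. Without the filter 630 were lower. Of the 6 chrM genes, 0 were called with library totals, 4 with totals without chrM, 0 with chrM totals, 1 without the filter, 6 with a mean above 50, 0 with a pseudocount of 0.1 and 5 with a pseudocount of 10.

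Without each library in turn, the lone library was assumed to vary like the other group. Then 0 genes were called in either direction in limma and 0 of the chrM genes, with 590 to 2333 higher and 468 to 3324 lower at an unadjusted p under 0.05. Medians ran from 2.88 to 3.51 for the copies and from 2.85 to 3.53 for the chrM genes. The replicate numbers are shared by the fractions, and with 2 pairs nothing shows that they mark pairs (r = 0.13 across 12150 genes, which are not independent replicates). With the replicate block 470 genes were higher and 309 lower, and 2 chrM genes were called. edgeR and DESeq2 were not run, since the values are not counts and reads of the rest libraries could not be recovered. There the depth of a single gene is unknown.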
